A study of Mus musculus with 9 samples.

Results

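Paneth cells sit at the base of small intestinal crypts between the stem cells and store antimicrobial proteins in large granules. Defensins are the best known of these proteins, but the granules also hold lysozyme, lectins, ribonucleases and phospholipases, and a matrix protease, matrilysin, cuts the mouse defensins into their active form. The genes followed here are 10 Paneth cell genes other than defensins, chosen by symbol from the 35013 gene symbols of the deposited bulk RNA-Seq tables: Lyz1, Lyz2, Itln1, Ang4, Mmp7, Pla2g2f, Habp2, Guca2b, Gfi1 and Nupr1. All 10 members were in both tables and passed the filter on low values in both.

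mRNA was sequenced from epithelial cells sorted from the small intestine of NFKO mice (Neurog3Cre-FoxO1 f/f; Rosa26tdtomato) aged 4 to 6 weeks, with 3 libraries each of CD24negTomato+, CD24+Tomato+ and Tomatoneg cells. Neurog3Cre is active in the progenitors of the enteroendocrine lineage, where it both deletes FoxO1 and turns on the Tomato reporter, so Tomato+ cells are descendants of Neurog3-expressing cells. CD24 is a surface protein that Paneth cells carry, and antibodies to it and to the epithelial protein EPCAM were used in the sort. The Tomatoneg cells are the other epithelial cells of animals with the same genotype, and mice with intact FoxO1 were not analysed here, so the comparisons are between sorted populations and not between genotypes. The labels do not say whether a library came from 1 mouse or from several, and P values measure only the spread between these libraries.

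CD24negTomato+ libraries were deposited in one table and CD24+Tomato+ libraries in another, each beside the same Tomatoneg libraries. The values are normalized counts, which are read counts estimated for each gene and scaled by the authors. Between the tables, Tomatoneg replicate 1 differed by a ratio of 1.07 to 1.11 over the 9 members at 50 or more. The scaling was therefore not the same for all genes of a library. Each table was scaled on its own, so differences were taken only within a table. Levels given side by side from both tables are approximate. The 2 comparisons share their Tomatoneg cells. The estimated depth was 29962630 to 37133889 reads for CD24negTomato+, 27723742 to 39234462 for CD24+Tomato+ and 19158348 to 24368832 for Tomatoneg libraries. Tomatoneg replicate 1 stood apart, with a Pearson's r across genes of 0.818 to 0.864 with the other Tomatoneg libraries, which had 0.924 and 0.927 with each other in the 2 tables. Foxo1, the gene deleted, was at 467, 274 and 371 normalized counts in replicates 1, 2 and 3 of CD24negTomato+ cells, against 695, 518 and 424 in Tomatoneg cells, and 319, 193 and 201 in CD24+Tomato+ cells against 748, 529 and 444. It was lower in the Tomato+ library of every same-numbered pair, but its limma adjusted P was 0.427 and 0.0579, and 0.207 and 0.0219 with the replicate number as a block. These counts cover the whole transcript, and which exons the deletion removes is not given in the sources used here. Cd24a, which encodes CD24, was higher in CD24+Tomato+ than in Tomatoneg cells (log2 difference 2.78, standard error 0.28, limma adjusted P = 0.0030). In CD24negTomato+ cells its log2 difference was -1.37 (standard error 0.36, limma adjusted P = 0.115, blocked 0.0133).

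Lyz1 and Lyz2 are near-copies. The first is the lysozyme of Paneth cells and the second that of macrophages and other myeloid cells, and they are neighbors on the minus strand of chromosome 10 of GRCm38, at chr10:117287797-117292868 and chr10:117277331-117282321. Their coding sequences are both 447 bases long and 95.1% identical, with 22 differing bases and an identical run of 118 bases. Of the 31-base words by which kallisto assigns reads, 422 occur in both genes, which is 34.2% of those of Lyz1 and 32.8% of those of Lyz2. Coding bases 61 to 120, shown because 9 of the differing bases fall in this stretch and tell reads of the genes apart, read as follows in the GENCODE M21 transcripts, with the differing bases in capitals.
Lyz1: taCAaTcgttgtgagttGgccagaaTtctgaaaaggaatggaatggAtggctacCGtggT
Lyz2: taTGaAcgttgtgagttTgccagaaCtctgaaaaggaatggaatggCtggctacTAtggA

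Upstream of the start sites the copies remain recognizable. The bases from 130 to 51 before each RefSeq start (GRCm38.p6), at chr10:117292919-117292998 for Lyz1 and chr10:117282323-117282402 for Lyz2, were 87.5% identical over 80 bases, and the 10 differing bases are in capitals on the minus strand. They are shown because the 2 genes had very different levels.
Lyz1: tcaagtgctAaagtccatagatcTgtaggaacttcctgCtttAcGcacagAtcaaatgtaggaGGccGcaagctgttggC
Lyz2: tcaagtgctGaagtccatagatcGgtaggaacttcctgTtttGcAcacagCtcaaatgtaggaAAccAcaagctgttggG

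Of the other members, Ang4 shares 13.8% of its 31-base words with Ang, Ang2, Ang5 and Ang6, Mmp7 shares 9.06% with AV064505, Habp2 shares 8.55% with Nrap and Itln1 shares 3.87% with Gm9765, while Gfi1, Nupr1, Pla2g2f and Guca2b share none. Ang2, Ang5 and Ang6 reached at most 2.96 normalized counts in any library.

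In CD24+Tomato+ cells, 8 of the 10 genes were higher than in Tomatoneg cells at an adjusted P under 0.05, and none was lower, by limma on log2(normalized count + 1). The 8 were Lyz1, Itln1, Ang4, Mmp7, Pla2g2f, Habp2, Gfi1 and Nupr1. Of all 13874 genes tested in that table, 8.02% were higher and 4.89% lower by the same rule (10.8% and 9.95% with the block). At an unadjusted P under 0.05, 8 members were higher and 0 lower, while 3863 of all 13874 genes passed in either direction. The median log2 difference of the 10 members was 2.95, against 0.16 for all genes tested. The number called was 1 (Pla2g2f) when CD24+Tomato+ replicate 2 was left out and 3 (Gfi1, Nupr1 and Pla2g2f) when CD24+Tomato+ replicate 3 was left out. With any other library left out it was 8.

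CD24negTomato+ cells gave a divided picture. Of the 10 members only Nupr1 was called higher, and none was called lower, by limma without the block, against 0.999% higher and 0.32% lower among the 13420 genes tested. At an unadjusted P under 0.05, 3 members were higher and 3 were lower, while 2292 of all 13420 genes passed in either direction. Same-numbered libraries moved together, and with the replicate number as a block Gfi1, Nupr1 and Pla2g2f were called higher and Lyz1 and Itln1 lower. The block raised the calls to 4.34% of all genes higher and 2.96% lower. The median log2 difference of the 10 members was -0.10, against 0.08 for all genes. Leaving out Tomatoneg replicate 1 gave 5 calls without the block (Gfi1 and Nupr1 higher, Lyz1, Itln1 and Ang4 lower) and 6 with it (the same 5 and Pla2g2f). Without CD24negTomato+ replicate 1, 2 or 3 or Tomatoneg replicate 2 there were 0 calls.

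**Figure D1:**
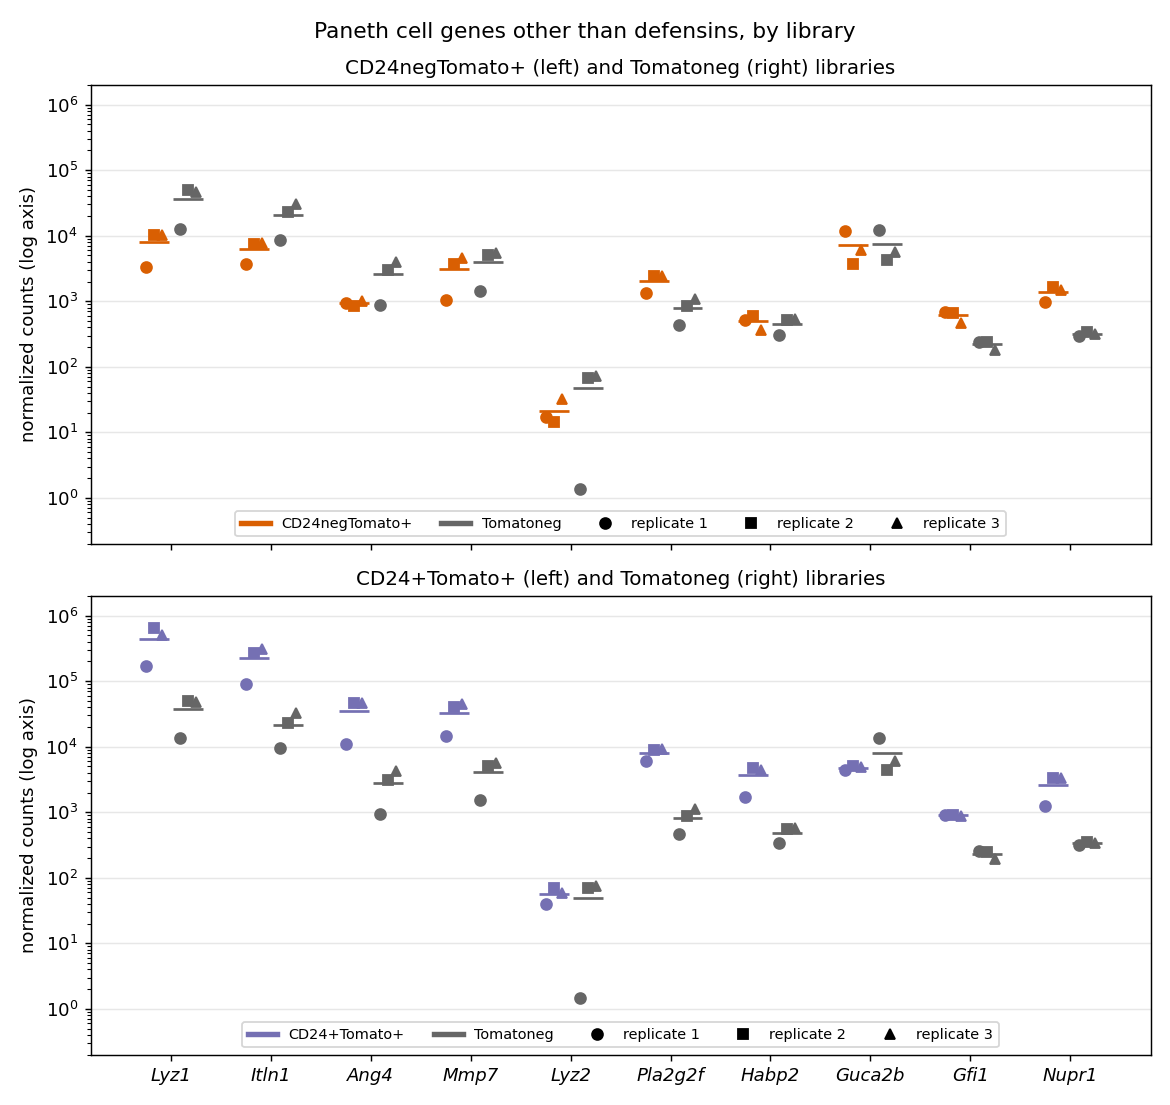
Normalized counts (log axis) of the 10 genes in each library of the CD24negTomato+ and Tomatoneg table (upper) and of the CD24+Tomato+ and Tomatoneg table (lower), with bars at the group means and symbols for replicates 1, 2 and 3. Lyz1 and Itln1 lie below the Tomatoneg libraries in CD24negTomato+ cells and above them in CD24+Tomato+ cells, while Pla2g2f, Gfi1 and Nupr1 lie above in both.

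Lyz1 had 172202, 644306 and 515378 normalized counts in CD24+Tomato+ replicates 1, 2 and 3, against 13501, 50616 and 48830 in the Tomatoneg libraries of that table. Every CD24+Tomato+ library was above every Tomatoneg library, and the log2 difference was 3.58 (standard error 0.75, limma adjusted P = 0.0239), or 11.97-fold on the log2(normalized count + 1) scale. It was 3.21 without CD24+Tomato+ replicate 2 and 3.37 without replicate 3, and passed the threshold in neither fit. Without Tomatoneg replicate 1 it was 2.95 and still called. CD24negTomato+ libraries had 3373, 10430 and 10432 normalized counts of Lyz1, against 12517, 49404 and 46480 in Tomatoneg libraries. All 3 were below the lowest Tomatoneg library. The log2 difference of -2.10 (standard error 0.64) had a limma adjusted P of 0.157, and of 0.00199 with the replicate block, since the pairs differed by -1.89, -2.24 and -2.16. It was -2.74 without Tomatoneg replicate 1, with an adjusted P of 0.0340 and no block.

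Per kilobase of transcript, Lyz2 had the lowest mean level of the 10 members in each group. It had 40.4, 69.2 and 59.6 normalized counts in CD24+Tomato+ libraries against 1.46, 69.7 and 75.8 in Tomatoneg libraries, and 17.05, 14.2 and 31.9 in CD24negTomato+ libraries against 1.35, 68.1 and 72.2. The groups overlapped in both tables. The value in Tomatoneg replicate 1 was under the 3.99 and 4.29 normalized counts that 3 reads made up in that library, a floor that covers counting error only. The log2 differences were 1.24 (standard error 1.35, limma adjusted P = 0.600) and -0.13 (standard error 1.39, limma adjusted P = 0.972). Without Tomatoneg replicate 1 they were -0.39 and -1.77. The ratio of Lyz2 to Lyz1 in CD24+Tomato+ libraries was 0.000235, 0.000107 and 0.000116, and reads shared between the copies make so small a value uncertain. Markers of macrophages and monocytes, cells that express Lyz2, summed to 451 to 720 normalized counts in CD24+Tomato+, 452 to 897 in CD24negTomato+ and 685 to 1095 in Tomatoneg libraries over both tables. Of the 12 markers, 9 and 8 reached a mean of 10 in the CD24neg and CD24+ tables and none was at 0 in all libraries of a group. None of them was called in the first table and 2 were called lower in the second, and their part in the Lyz2 values was not tested.

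Itln1 encodes intelectin, a lectin that binds microbial sugars. Its normalized counts were 89189, 272454 and 312045 in CD24+Tomato+ libraries against 9403, 23269 and 32249 in Tomatoneg libraries, a log2 difference of 3.36 (standard error 0.66, limma adjusted P = 0.0200). The groups did not overlap. The difference was 3.12 without CD24+Tomato+ replicate 2 and 3.02 without replicate 3, with no call in either. In the other table it had 3679, 7581 and 7776 normalized counts in CD24negTomato+ libraries against 8714, 22703 and 30685. Each CD24negTomato+ value was below all Tomatoneg values, with a log2 difference of -1.60 (standard error 0.51) and a limma adjusted P of 0.169, or 0.00920 with the block. Without Tomatoneg replicate 1 the difference was -2.13, with an adjusted P of 0.0300.

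Ang4, a ribonuclease of the angiogenin family with microbicidal activity, had 11182, 46378 and 46466 normalized counts in CD24+Tomato+ libraries and 934, 3099 and 4248 in Tomatoneg libraries. Its log2 difference of 3.64 (standard error 0.72, limma adjusted P = 0.0206) was 3.30 without CD24+Tomato+ replicate 2 or 3, past the threshold in neither fit. The difference was 2.99 without Tomatoneg replicate 1 and 4.33 without CD24+Tomato+ replicate 1, and called in both. CD24negTomato+ libraries had 945, 850 and 993 normalized counts, against 864, 3017 and 4034. Here the groups overlapped through Tomatoneg replicate 1, and the CD24negTomato+ libraries lay close together while the Tomatoneg libraries spread widely. The log2 difference was -1.24 (standard error 0.53, limma adjusted P = 0.292, blocked 0.126). It was -1.91 with an adjusted P of 0.0123 without Tomatoneg replicate 1.

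Mmp7, the matrilysin that processes defensins, had 14623, 40275 and 44888 normalized counts in CD24+Tomato+ libraries and 1525, 5131 and 5690 in Tomatoneg libraries, a log2 difference of 3.07 (standard error 0.62, limma adjusted P = 0.0211). Without CD24+Tomato+ replicate 2 or 3 it was 2.85 or 2.78 and was not called, and without Tomatoneg replicate 1 it was 2.46 and called. In CD24negTomato+ libraries Mmp7 had 1059, 3708 and 4525 normalized counts against 1413, 5005 and 5413. The ranges of the groups largely coincided, yet each CD24negTomato+ library was below the Tomatoneg library of the same number. The log2 difference of -0.37 (standard error 0.68, limma adjusted P = 0.813, blocked 0.139) was not past the threshold. It became 0.28 when CD24negTomato+ replicate 1 was left out.

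Pla2g2f encodes a secreted phospholipase A2, an enzyme that cuts fatty acids from membrane lipids. CD24+Tomato+ libraries had 6073, 8783 and 9164 normalized counts against 464, 876 and 1135 in Tomatoneg libraries. Its log2 difference of 3.35 (standard error 0.36, limma adjusted P = 0.00347) was past the threshold with any 1 library left out. CD24negTomato+ libraries had 1328, 2401 and 2420 normalized counts against 430, 856 and 1081, so they too were all above the Tomatoneg libraries, unlike those of Lyz1 and Itln1. The log2 difference was 1.42 (standard error 0.41), with a limma adjusted P of 0.135 and of 0.0145 with the block.

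Habp2 encodes a secreted serine protease that binds hyaluronan. It had 1709, 4813 and 4402 normalized counts in CD24+Tomato+ libraries and 343, 549 and 580 in Tomatoneg libraries, with no overlap and a log2 difference of 2.79 (standard error 0.43, limma adjusted P = 0.00997). The difference was 2.52 without CD24+Tomato+ replicate 2 and 2.58 without replicate 3, neither called. CD24negTomato+ libraries had 519, 602 and 370 normalized counts against 307, 518 and 534. These groups overlapped, and the log2 difference was 0.15 (standard error 0.34, limma adjusted P = 0.857). It was -0.05 with library totals made equal, a scaling that moved all genes of that table by -0.20.

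Guca2b, which encodes uroguanylin, a peptide that controls salt and water secretion through guanylyl cyclase C, was the member with no difference past the threshold and a high level in every library. It had 11946, 3728 and 5989 normalized counts in CD24negTomato+ libraries against 12397, 4275 and 5729 in Tomatoneg libraries. The log2 difference was -0.06 (standard error 0.52, limma adjusted P = 0.964). CD24+Tomato+ libraries had 4422, 5007 and 4870 normalized counts against 13428, 4399 and 6044, a log2 difference of -0.58 (standard error 0.39, limma adjusted P = 0.397). The groups overlapped in both tables, and the widest gap was between the replicate 1 libraries of the second table. Guca2a, which encodes the related peptide guanylin, was called higher in both tables, with log2 differences of 1.66 (limma adjusted P = 0.0164) in CD24negTomato+ and 2.34 (limma adjusted P = 0.00318) in CD24+Tomato+ cells, and was named after its values were seen.

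The nuclear regulators Gfi1 and Nupr1 were at a higher level in every Tomato+ library than in any Tomatoneg library of the same table. Gfi1, a zinc finger repressor needed for Paneth and goblet cells to form, had 915, 923 and 871 normalized counts in CD24+Tomato+ libraries against 259, 245 and 191 in Tomatoneg libraries. The log2 difference of 1.97 (standard error 0.27, limma adjusted P = 0.00700) was 1.95 and not called without CD24+Tomato+ replicate 2. In CD24negTomato+ libraries it had 693, 673 and 469 normalized counts against 241, 241 and 183, with no overlap. Its log2 difference there was 1.45 (standard error 0.31), with a limma adjusted P of 0.0706, of 0.0285 with the block, and of 0.0393 without Tomatoneg replicate 1.

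Nupr1 encodes a small chromatin protein induced by cell stress. Its normalized counts were 976, 1629 and 1489 in CD24negTomato+ libraries against 292, 339 and 319 in Tomatoneg libraries. Every CD24negTomato+ library was above the 3 Tomatoneg libraries, which were close together, and the log2 difference was 2.07 (standard error 0.28, limma adjusted P = 0.0195), or 4.20-fold. The adjusted P was 0.0731, 0.155 or 0.120 without CD24negTomato+ replicate 1, 2 or 3 and 0.0510 without Tomatoneg replicate 2, while the log2 difference stayed between 1.93 and 2.30. CD24+Tomato+ libraries had 1262, 3386 and 3294 normalized counts against 320, 353 and 341, a log2 difference of 2.83 (standard error 0.40, limma adjusted P = 0.00786). It was 2.59, with an adjusted P of 0.0569, without CD24+Tomato+ replicate 2. In bulk samples, fewer cells of a type and less RNA per cell cannot be told apart, which applies to each difference given here.

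**Figure D2:**
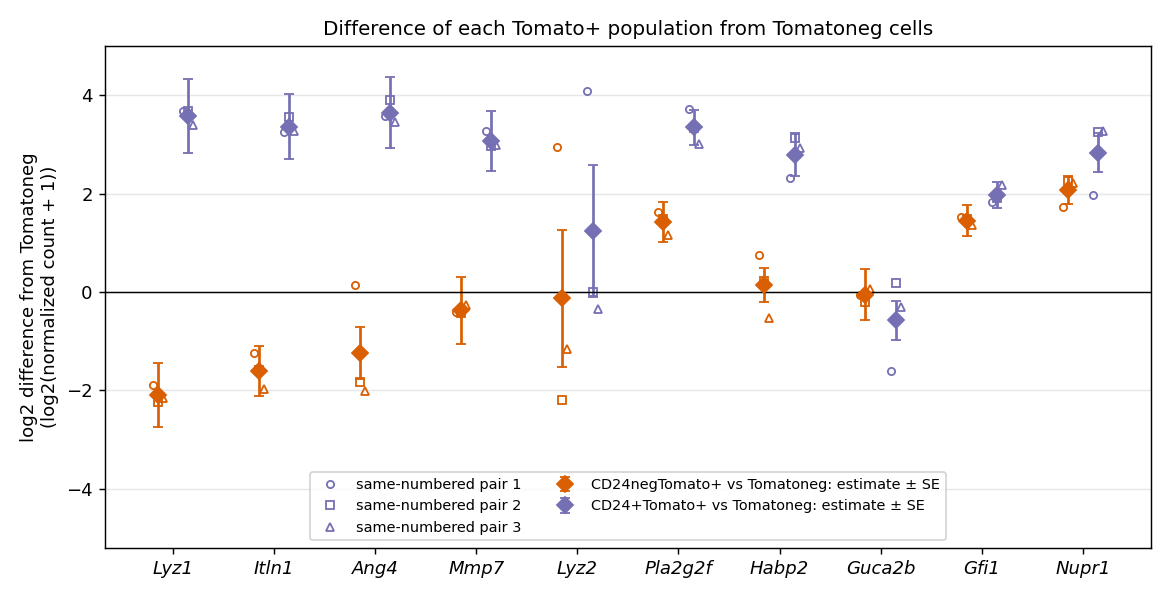
Log2 difference of each gene from Tomatoneg cells on the log2(normalized count + 1) scale, with filled diamonds for the limma estimate ± standard error of 3 against 3 libraries and open symbols for the 3 same-numbered pairs. In CD24negTomato+ cells (orange) the estimates run from -2.10 for Lyz1 to 2.07 for Nupr1, and in CD24+Tomato+ cells (purple) all but Lyz2 and Guca2b lie at 1.97 or higher.

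In CD24negTomato+ libraries the granule genes did not all differ from Tomatoneg libraries in the same direction or proportion. The ratio of Mmp7 to Lyz1 was taken within a library, where a factor shared by all genes would cancel. It was 0.314, 0.355 and 0.434 in CD24negTomato+ libraries and 0.113, 0.101 and 0.116 in Tomatoneg libraries. In CD24+Tomato+ libraries it was 0.0849, 0.0625 and 0.0871, and with the scaling of that table the Tomatoneg ratios were 0.113, 0.101 and 0.117. The ratio of Pla2g2f to Lyz1 was 0.394, 0.230 and 0.232 in CD24negTomato+ libraries, above the 0.0173 to 0.0344 of Tomatoneg libraries and the 0.0136 to 0.0353 of CD24+Tomato+ libraries. The ratio of Itln1 to Lyz1 differed less, at 0.727 to 1.09 in CD24negTomato+, 0.459 to 0.696 in Tomatoneg and 0.423 to 0.605 in CD24+Tomato+ libraries. These ratios were chosen after the values were seen and were not tested. Summed goblet cell markers were 2107802 to 2813924 normalized counts in CD24negTomato+ and 132993 to 203986 in Tomatoneg libraries of the same table, with 9 of 9 called higher. They were also higher in CD24+Tomato+ libraries, at 991895 to 1252861 against 147883 to 217040, again with 9 of 9 called. The level of Lyz1, the denominator of the ratios, also differed between the populations. It was 172202 to 644306 normalized counts in CD24+Tomato+ libraries and 3373 to 10432 in CD24negTomato+ libraries. The part of goblet cells in the ratios was not tested.

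**Figure D3:**
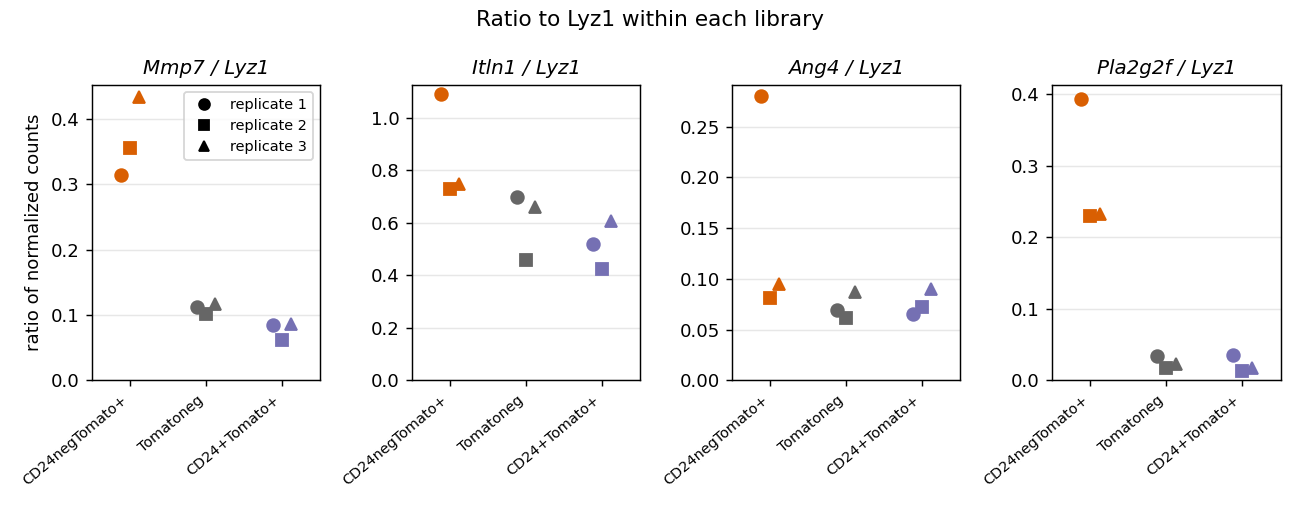
Ratio of the normalized counts of Mmp7, Itln1, Ang4 and Pla2g2f to those of Lyz1 in each library, with axes from 0, symbols for replicates 1, 2 and 3, and Tomatoneg values from the table with CD24negTomato+. For Mmp7 and Pla2g2f the 3 CD24negTomato+ libraries lie above all Tomatoneg and CD24+Tomato+ libraries, at 0.314 to 0.434 and 0.230 to 0.394.

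The order of the genes changed between populations. On the scale of normalized counts per kilobase of annotated transcript, the mean level in Tomatoneg libraries (of the table with CD24negTomato+) was 28610 for Lyz1, 18142 for Itln1, 10713 for Guca2b, 3721 for Ang4 and 3693 for Mmp7. It then fell to 382 for Nupr1, 320 for Pla2g2f, 161 for Habp2, 77.5 for Gfi1 and 35.9 for Lyz2. Neighbors from Lyz1 to Guca2b, Ang4 and Mmp7, and Nupr1 to Habp2 had overlapping ranges. In CD24negTomato+ libraries the order of these levels was Guca2b (10360), Lyz1 (6396), Itln1 (5561), Mmp7 (2900), Nupr1 (1646), Ang4 (1311), Pla2g2f (831), Gfi1 (214), Habp2 (177) and Lyz2 (16.0), with overlap between each pair of neighbors from Guca2b to Ang4 and between Gfi1 and Habp2. In CD24+Tomato+ libraries it was Lyz1 (351514), Itln1 (196812), Ang4 (48908), Mmp7 (31144), Guca2b (6839), Pla2g2f (3248), Nupr1 (3194), Habp2 (1294), Gfi1 (316) and Lyz2 (42.9). Here Lyz1 overlapped Itln1, Ang4 overlapped Mmp7, and Pla2g2f, Nupr1 and Habp2 overlapped their neighbors in the order. Together the 10 genes took 1.33%, 3.73% and 3.27% of the normalized counts of CD24+Tomato+ replicates 1, 2 and 3, 0.146%, 0.370% and 0.362% of Tomatoneg libraries and 0.0869%, 0.115% and 0.114% of CD24negTomato+ libraries.

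Replicate 1 of each population had a lower level of the main granule genes than replicates 2 and 3. On the log2 scale, replicate 1 minus the mean of the other 2 was -1.63, -1.94 and -1.74 for Lyz1 in CD24negTomato+, Tomatoneg and CD24+Tomato+ cells and -1.95, -1.88 and -1.54 for Mmp7. For Itln1 it was -1.06, -1.60 and -1.71. The median over all genes tested was -0.03, -0.09 and 0.08. Ang4 had -2.01 and -2.05 in Tomatoneg and CD24+Tomato+ cells but 0.04 in CD24negTomato+ cells. Guca2b went the other way, with 1.34 and 1.32 in CD24negTomato+ and Tomatoneg cells and -0.16 in CD24+Tomato+ cells, and Gfi1 had 0.30, 0.20 and 0.03. In each population the summed α-defensins were lower and the summed enterocyte markers higher in replicate 1 than in replicates 2 and 3. Ang4 in CD24negTomato+ cells and Guca2b in CD24+Tomato+ cells shifted little by comparison. The summed α-defensins were 70299 normalized counts in Tomatoneg replicate 1 and 296812 and 298664 in replicates 2 and 3. They were 23207 against 67514 and 80267 in CD24negTomato+ libraries. The summed enterocyte markers were 1064594 against 287061 and 314823 in Tomatoneg libraries, and 166180 against 58424 and 51127 in CD24+Tomato+ libraries. Their part in the replicate pattern was not tested.

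**Figure D4:**
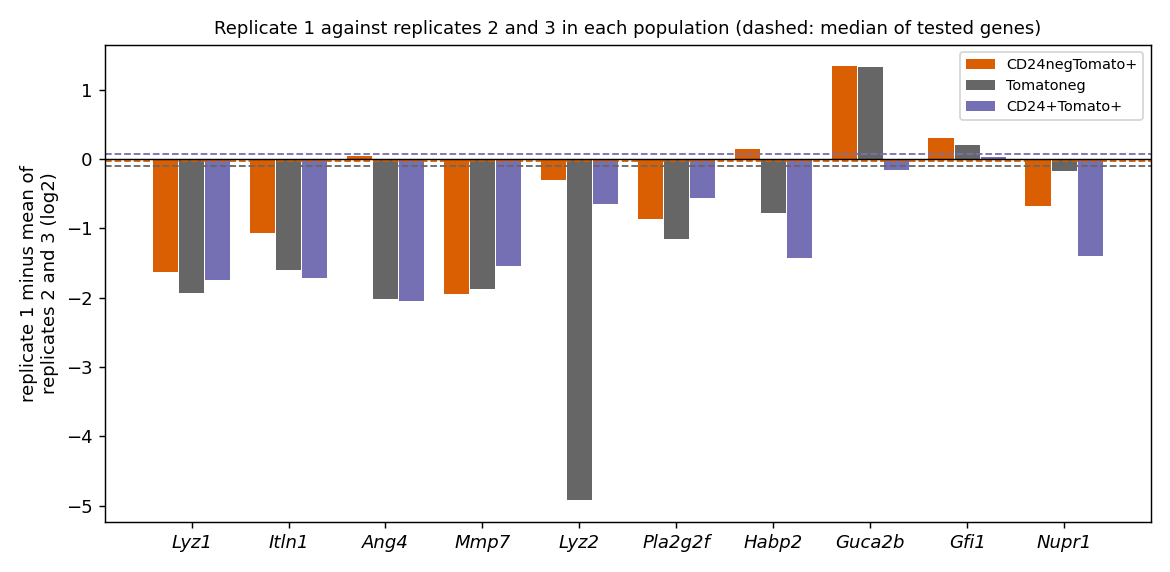
Replicate 1 minus the mean of replicates 2 and 3 (log2 scale) for the 10 genes in CD24negTomato+, Tomatoneg (from the table with CD24negTomato+) and CD24+Tomato+ cells, with dashed lines at the medians of all genes tested. Lyz1, Itln1 and Mmp7 are below -1 in all 3 populations, while Gfi1 stays between 0.03 and 0.30.

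The α-defensins were the genes nearest in pattern to Lyz1. Of 28 α-defensin symbols, 25 were tested in each table. In CD24+Tomato+ cells 20 were higher and none lower (25 higher and none lower with the block), with a median log2 difference of 3.81. In CD24negTomato+ cells none was called (0 higher and 20 lower with the block), with a median of -2.13. The ratio of Lyz1 to the summed defensins lay between 0.125 and 0.194 in all libraries. Among 13238 genes, those nearest to Lyz1 across the 9 libraries, by the root mean square difference of log2 values centered within each table, were Defa3 (0.14), Defa20 (0.16) and Defa17 (0.19), where the median gene was at 1.81. Nearest to Itln1 were Defa17 (0.25), Defa3 (0.27) and Lyz1 (0.32), and nearest to Ang4 were Itln1 (0.35), Defa3 (0.41) and Defa24 (0.46). Defensin genes share sequence with each other, so their single values are uncertain.

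Other members had other neighbors. Mmp7 was nearest to Bhlha15 (0.37), a transcription factor of secretory cells, then Rcor2 (0.42) and Hpd (0.46). Gfi1 was nearest to Meis3 (0.20), Creb3l1 (0.20) and Slc35e4 (0.22). Nupr1 was nearest to Spink4 (0.32), Spdef (0.35) and Guca2a (0.36), of which Spink4 and Spdef are goblet cell genes. Pla2g2f was nearest to Pim2 (0.22), Maged1 (0.23) and Pycr1 (0.27), and Habp2 to Gadd45g (0.26), Chrnb4 (0.38) and Bex3 (0.40). Guca2b was nearest to Grina (0.15), Acy3 (0.18) and Gstm7 (0.22). Lyz2 was nearest to Dennd1c (0.26), Cd68 (0.32) and H2ac13 (0.33), but its value in Tomatoneg replicate 1 was under 3 reads, which makes its neighbors uncertain. These distances describe 12 columns that include the Tomatoneg libraries in both tables.

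Related genes were read from lists written by function. Of 15 Paneth granule and secreted genes outside the 10, 14 were tested. In CD24+Tomato+ cells 7 were higher and 2 lower (9 and 4 with the block), with a median log2 difference of 2.41. In CD24negTomato+ cells 1, Guca2a, was higher and none was lower (1 and 3 with the block), with a median of 0.04. The largest differences past the threshold in CD24+Tomato+ cells were 3.69 for the lipase cofactor Clps (limma adjusted P = 0.00536), 3.31 for the pentraxin Mptx1 (0.0468), 3.22 for the lipase Pnliprp2 (0.00676) and 3.08 for the phospholipase Pla2g2a (0.0150). In CD24negTomato+ cells Pla2g2a had 85.5, 340 and 339 normalized counts against 387, 1163 and 958 (log2 difference -1.81, limma adjusted P = 0.214, blocked 0.0202), the opposite sign to Pla2g2f. Mptx1 had a log2 difference of 1.87 there (limma adjusted P = 0.231). Clps and Pnliprp2 are also pancreatic acinar genes, and summed acinar markers were 840 to 6462 normalized counts in CD24+Tomato+ libraries and 285 to 421 in Tomatoneg libraries. None of the 12 acinar markers tested was called higher without the block and 5 were with it, and their part was not tested.

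Among regulators of Paneth and secretory cell fate, 8 of 15 tested were higher in CD24+Tomato+ cells and none was lower (9 and 1 with the block), and 2 of 14 were higher in CD24negTomato+ cells and none lower (5 and 1 with the block). The largest in CD24+Tomato+ cells were Gfi1b, a paralog of Gfi1 (log2 difference 5.42, limma adjusted P = 0.0159), Foxa2 (2.80, 0.00726), Spdef (2.58, 0.00236) and Bhlha15 (2.51, 0.0138). Gfi1b is also on the lists of tuft cell markers and of paralogs used below, so its call is counted in each. The part of tuft cells in its value was not tested. Spdef, a factor needed for goblet and Paneth cells to mature, was also higher in CD24negTomato+ cells (1.79, limma adjusted P = 0.0233). Bhlha15 was not (-0.51, limma adjusted P = 0.673), and neither was Foxa2 without the block (1.94, 0.0702, and 0.0318 with it). Of 8 niche ligands and surface receptors, which support or mark the crypt base, 5 were higher in CD24+Tomato+ cells and none was lower (5 and 1 with the block). These included Wnt3 (2.74, limma adjusted P = 0.00324), the Notch ligand Dll4 (2.22, 0.00288) and the receptor Kit (2.27, 0.0340). Also among the 5 was Cd24a (2.78, limma adjusted P = 0.0030), whose protein was used in the sort, so its call is not independent of the sort. In CD24negTomato+ cells 0 of 8 were called (0 higher and 1 lower, Cd24a, with the block). Wnt3 had 86.9, 145 and 106 normalized counts there against 222, 158 and 160.

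Of 34 paralogs and partners, 31 were in the tables. In CD24+Tomato+ cells 11 of 20 tested were higher and 1 lower (12 and 1 with the block), and in CD24negTomato+ cells 3 of 18 were higher and none lower (5 and 2 with the block). The secreted phospholipases Pla2g2d and Pla2g1b had log2 differences of 5.57 (limma adjusted P = 0.0165) and 4.12 (0.0365) in CD24+Tomato+ cells, from low Tomatoneg levels of 1.25, 37.3 and 5.81 normalized counts for Pla2g2d and 0, 4.41 and 6.15 for Pla2g1b. Gucy2c, the receptor for uroguanylin, differed in neither table past the threshold, with log2 differences of 0.21 and -0.04 (limma adjusted P = 0.654 and 0.916), and was named after its values were seen.

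Markers of other cells described the populations that held these genes. Goblet markers were all higher in CD24+Tomato+ cells too (9 of 9). Enteroendocrine markers were higher for 12 of 12 in CD24+Tomato+ and 8 of 12 in CD24negTomato+ cells (10 higher and 2 lower with the block in the latter). Tuft cell markers were higher for 7 of 8 in CD24+Tomato+ cells and lower for 2 of 6 tested in CD24negTomato+ cells (5 with the block). Enterocyte markers were lower for 6 of 10 in CD24+Tomato+ cells (10 with the block), and none of 10 was called in CD24negTomato+ cells (1 higher with the block). Stem cell markers were called for 0 of 8 in CD24+Tomato+ cells (2 higher with the block) and for 1 of 8, lower, in CD24negTomato+ cells (3 lower with the block). Lymphocyte markers were lower for 6 of 8 in CD24+Tomato+ and 2 of 8 in CD24negTomato+ cells (6 and 4 with the block), with summed levels of 413 to 506 normalized counts in CD24+Tomato+, 576 to 1159 in CD24negTomato+ and 2531 to 10312 in Tomatoneg libraries over both tables. No neutrophil marker reached the filter, and their sum was at most 45.4 in any library. The part of these cells in the members' values was not tested.

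Promoters were searched for 2 motifs. The TCF/LEF core CTTTGA, through which WNT signaling acts in Paneth cells, occurred on either strand in the 250 bases before the start of 13.8% of 32851 RefSeq promoters, and in 2 of the 12 windows of the 10 genes, those of Guca2b and Mmp7. The forkhead core TGTTTAC occurred in 3.17% of all promoters and in 0 of the 12 windows. A match describes letters and not a bound site.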

How the data were processed

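Per the labels, poly-A RNA was sequenced from 9 libraries in 3 groups. The authors deposited a signal: kallisto 0.44.0 gene counts on GRCm38, after bcl2fastq 2.19, normalized by DESeq2 in 2 tables of 6 libraries. The submitters' notes also list sleuth. The annotation release is not given in the sources used here. Whole reads could not be recovered, so count tests were not run.

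Genes averaging at least 10 over 6 libraries were tested on log2(normalized count + 1) with limma 3.58.1 (lmFit, eBayes with trend) in R 4.3.3, 3 against 3, two-sided. P values were adjusted by Benjamini-Hochberg over all genes tested, with a threshold of 0.05. This scale understates changes of low genes. An exact permutation test of 3 against 3 cannot go below 0.1. The most common low value of a library was taken as 1 read for the estimated depth and the floor of 3 reads. The script was tested on simulated data. Python 3.11.15, numpy 2.4.6, pandas 2.3.3 and matplotlib 3.10.9 were used for other steps. Positions are from GENCODE M21 and upstream sequences from RefSeq, and all 10 genes matched in both.

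Deviations from group means correlated in every same-numbered pair (0.302, 0.291 and 0.342 for CD24negTomato+ with Tomatoneg, 0.283, 0.180 and 0.375 for CD24+Tomato+), and different numbers had -0.364 to -0.030. The numbers come from the labels, and no source says whether they mark shared mice or sorts. The replicate block is therefore given where it changes a call or a count of calls.

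Members and lists were chosen with earlier results of these data known. Named were all 10 members, Foxo1 and Cd24a, up to 4 genes with the largest difference past the threshold per related list, and the 3 genes nearest to each member. Cell type lists were summarized as counts and summed levels. Alternatives were other pseudocounts, filters, scalings and variance priors, the block, and each library left out.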

Additional observations from a re-analysis of the deposited data

Results flagged for a closer look

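Lyz1, Itln1 and Mmp7 had values below the same-numbered Tomatoneg library in all 3 CD24negTomato+ libraries and above it in all 3 CD24+Tomato+ libraries. The log2 difference in CD24negTomato+ and CD24+Tomato+ cells was -2.10 and 3.58 for Lyz1, -1.60 and 3.36 for Itln1, and -0.37 and 3.07 for Mmp7. All 3 genes passed the threshold in CD24+Tomato+ cells (limma adjusted P = 0.0239, 0.0200 and 0.0211). In CD24negTomato+ cells none did without the block (0.157, 0.169 and 0.813), and with it Lyz1 and Itln1 did and Mmp7 did not (0.00199, 0.00920 and 0.139). This contrast between CD24negTomato+ and CD24+Tomato+ cells was not tested, and the share of all genes with such opposite signs was not computed. Their tables have separate scaling and share the Tomatoneg libraries. For Mmp7 the estimate in CD24negTomato+ cells became 0.28 without CD24negTomato+ replicate 1. CD24 was used to sort the populations, and Cd24a had log2 differences of -1.37 and 2.78.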

How the results depend on the processing

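For CD24negTomato+ against Tomatoneg cells, 177 genes were called. The number was 112 with a pseudocount of 0.1, 415 with a pseudocount of 10, 979 with the replicate block, 1648 with the block and Tomatoneg replicate 1 left out, 494 with quantile normalization, 291 without a trend in eBayes, and 9 to 916 with 1 library left out (9 without CD24negTomato+ replicate 2, 916 without Tomatoneg replicate 1). For CD24+Tomato+ cells 1791 genes were called, 2885 with the block, 3183 with the block and Tomatoneg replicate 1 left out, and 137 to 2393 with 1 library left out (137 without CD24+Tomato+ replicate 2, 2393 without Tomatoneg replicate 1). The split was 1113 higher and 678 lower, and 991 and 1036 with quantile normalization. In CD24negTomato+ cells it was 134 and 43, 304 and 190 with quantile normalization, and 98 and 60 with library totals made equal.

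Of the 10 members, 1 was called in CD24negTomato+ cells, 5 with the block, 6 with the block and Tomatoneg replicate 1 left out, and 0 to 5 with 1 library left out. In CD24+Tomato+ cells 8 were called, and 1 to 8 with 1 library left out. The block changed no other member's call.

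The sign of the log2 difference changed for members with no call. In CD24negTomato+ cells Lyz2 was 0.043 with a pseudocount of 0.1 and -1.77 to 0.71 with 1 library left out, Mmp7 -0.996 to 0.28, Habp2 -0.11 to 0.34 and Guca2b -0.51 to 0.38. Habp2 was -0.053 with equal totals and -0.16 with the block and Tomatoneg replicate 1 left out. In CD24+Tomato+ cells Lyz2 was -0.77 with quantile normalization, -0.18 with the block and Tomatoneg replicate 1 left out, and -0.39 to 2.09 with 1 library left out. Over all members and alternatives, 135 values kept their sign and call in CD24+Tomato+ cells, 12 lost the call and 3 changed sign. In CD24negTomato+ cells 121 kept both, 13 gained a call, 4 lost it and 11 changed sign. The cause was not tested. Where an arm had 1 library left out, the others of its group set the spread with those of the other group. Leaving out Tomatoneg replicate 1 within the block was chosen after seeing the data. Count tests were planned for recovered whole reads and not run. A value under 3 reads, such as Lyz2 in Tomatoneg replicate 1, was not detectable at this depth.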
